A study of Mus musculus with 2 samples.

Results

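Microglia carrying MHC class II RNA were examined among single cells sorted from the inflamed central nervous system of mice. A kept barcode was a member if it had at least 1 UMI, a counted RNA molecule, of 3 or more of 9 microglia genes (P2ry12, Tmem119, Sparc, Olfml3, Gpr34, Sall1, P2ry13, Slc2a5 and Crybb1). It also needed 3 or more UMIs summed over H2-Aa, H2-Ab1 and H2-Eb1, here called H2 UMIs, and none of Itgax, Top2a, Mki67 and Cd3e. This rule found 3911 members of 25603 kept barcodes, 2702 of 13298 in WT and 1209 of 12305 in Stat4fl/flCD11cCre. The RNA values of these cells chose them, so levels of the rule's own genes are given as a description.

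The study made 1 library from a pool of WT C57BL/6 mice and 1 from a pool of C57BL/6 mice of the genotype Stat4fl/flCD11cCre. In the latter, both copies of Stat4 are flanked by loxP sites and a Cre recombinase is driven by the CD11c promoter. CD11c is the product of Itgax, so the members are cells in which no transcript of that gene was counted. Both groups had EAE, an autoimmune disease of the brain and spinal cord in which T cells attack myelin and which serves as a model of multiple sclerosis, induced with a MOG peptide in complete Freund's adjuvant and pertussis toxin, and were examined on day 15. Cells were sorted for surface MHC class II and CD11c. The labels give neither the number nor the age of the mice. With 1 library per genotype no difference has a replicate check and no p-value is given. Every interval is a 95% interval for counting error only. The libraries shared 42 kept barcodes, none of them a member in both.

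Microglia are the resident macrophages of the brain and spinal cord, and at rest they hold little MHC class II. The α and β chains of class II molecules, encoded by H2-Aa, H2-Ab1 and H2-Eb1, are assembled with the invariant chain Cd74 and loaded with peptide with the help of H2-DMa and H2-DMb1, so that CD4+ T cells can read them. Interferon-gamma from T cells and NK cells acts through IRF1 and other factors to induce CIITA, the coactivator that switches these genes on together. STAT4 acts upstream in lymphocytes, where it carries the IL-12 signal that drives interferon-gamma production.

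The promoters on which CIITA acts share a set of boxes, of which the Y box is bound by NF-Y. The 100 bases before the RefSeq start of 3 class II genes are shown because H2-Aa and H2-Eb1 define the members and H2-DMb1 encodes a chain of their peptide loader. They are read 5′ to 3′ on the gene's strand in GRCm38.p6, with ATTGG, the core of the Y box, in capitals.
H2-Aa, chr17:34287824-34287923, minus strand: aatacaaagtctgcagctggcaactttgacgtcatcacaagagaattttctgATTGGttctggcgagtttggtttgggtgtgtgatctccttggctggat
H2-Eb1, chr17:34305767-34305866, plus strand: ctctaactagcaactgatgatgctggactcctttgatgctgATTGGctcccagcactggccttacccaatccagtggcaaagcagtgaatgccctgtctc
H2-DMb1, chr17:34153091-34153190, plus strand: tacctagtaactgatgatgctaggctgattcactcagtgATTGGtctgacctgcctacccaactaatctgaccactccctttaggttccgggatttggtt
Each window holds ATTGG 1 time on the gene's strand, with its first base 48, 59 and 61 bases before the start in H2-Aa, H2-Eb1 and H2-DMb1, and H2-Eb1 also holds CCAAT, the same letters on the other strand. Among 32851 promoter windows of this length, 18.9% held the motif on either strand and 10.4% held it as ATTGG. H2-Ab1 had no entry in the table.

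The label of these cells held only in part. The members had a median of 7 of the 9 microglia genes in WT and 8 in Stat4fl/flCD11cCre. The rule itself asked for 3 or more of them, so these medians are no check of the label. Of the members, 1014 in WT (37.5%) and 597 in Stat4fl/flCD11cCre (49.4%) also passed a gate for another cell type, with the same medians of 7 and 8. Among MHC class II-negative microglia, the microglia-gated cells with 0 H2 UMIs and none of the 4 barred genes, 6.70% and 4.58% did. Most often the gate was that of infiltrating macrophages, 3 or more of Arg1, Ccr2, Ly6c2, Ly6i, Plac8, Fn1 and Chil3, which 839 (31.1%) and 484 (40.0%) passed. The neutrophil gate was passed by 277 and 170 members, the border macrophage gate by 92 and 138, the B cell gate by 98 and 38, the plasmacytoid dendritic cell gate by 58 and 39, the conventional dendritic cell gate by 42 and 52, the T cell gate by 18 and 8, and the choroid plexus gate by 12 and 2.

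Members passing another gate were deep, with medians of 12379.5 and 16658 UMIs (WT and Stat4fl/flCD11cCre). Of these cells 28.3% and 47.2% were among the 10% of barcodes with the highest doublet scores of their library. The members with 0 of the 7 macrophage genes had medians of 4185 and 6313 UMIs, those with all 7 had 18746 and 25380. For this reason many results are also given for the microglia-only members, 1688 in WT and 612 in Stat4fl/flCD11cCre, that passed none of the 8 other gates. Where microglia-only cells are not named, a value is over all members. Of the microglia-only members, 1.60% and 2.94% were among the highest doublet scores. Arg1 was at 2.39 and 2.66 CPM there (UMIs scaled to a total of 1000000 UMIs over the described cells of a library). Cd79a, a B cell receptor chain, had 2 and 0 UMIs. At a fixed depth of 2500 UMIs, 0 of 599 Stat4fl/flCD11cCre microglia-only members had a Cd79a UMI. The exact upper bound on the share of cells with a UMI was 0.614%. These cells had to fail the macrophage gate, which holds Arg1, and the B cell gate, so the low levels of both genes are in part built in. Microglia-only members also had fewer H2 UMIs: the median was 26 and 29 over all members, 17 and 12 over microglia-only members, and 73.5 and 94 in members passing another gate. Depth differed between the genotypes as well, with medians of 5914.5 (WT) and 10644 UMIs over all members, and 4402 and 6480.5 over microglia-only members.

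**Figure D1:**
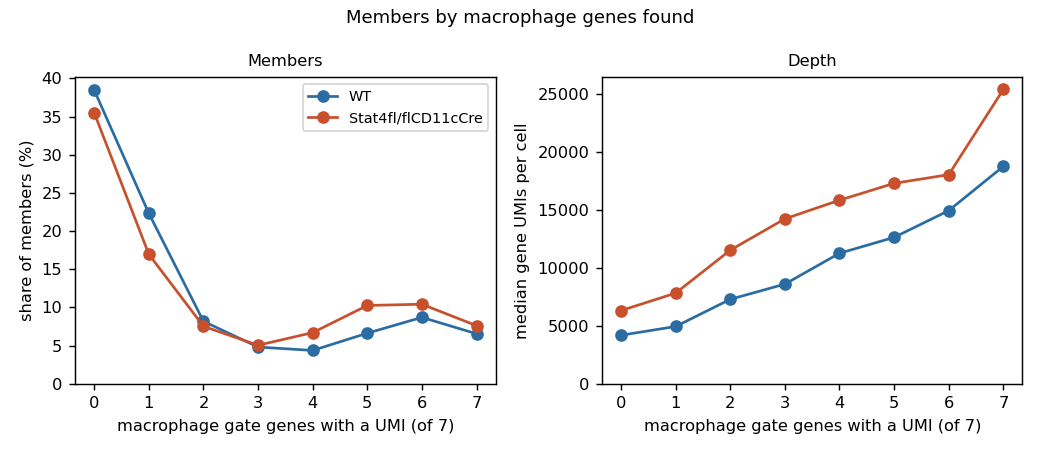
Members by the number of the 7 macrophage gate genes found in the cell (x axis): share of the library's members in percent and median gene UMIs per cell, with 1 point per library and number of genes. In both libraries the shares have a second rise at 5 and 6 genes, where the cells hold more UMIs than members with none.

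Class II UMIs were also counted in cells that should hold few. Among T cell-gated cells without any of the 9 microglia genes, 9.21% in WT and 7.42% in Stat4fl/flCD11cCre had 3 or more H2 UMIs (7.25% and 6.50% at a fixed depth of 2500 UMIs), at median depths of 5074 and 6012 UMIs. The macrophage gate was also passed by 24.3% and 17.2% of these cells. The part of free RNA or of doublets in their H2 UMIs was not tested. Near the threshold, 257 WT and 743 Stat4fl/flCD11cCre microglia had 1 H2 UMI, 156 and 180 had 2, 112 and 90 had 3, and 95 and 62 had 4. In WT the counts below and above the threshold ran into each other, so 3 UMIs do not part separate groups of cells there.

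The first comparison asked how many of the sorted microglia-gated cells carried class II RNA in each genotype. Sorting used surface MHC class II and CD11c, so the shares are of sorted cells, not of all microglia in the tissue. The part of the sort in them was not tested. Members made up 62.3% of microglia-gated cells in WT (2702 of 4336, 60.9 to 63.8) and 20.5% in Stat4fl/flCD11cCre (1209 of 5886, 19.5 to 21.6), a ratio of 0.330 (0.308 to 0.353). MHC class II-negative cells showed the reverse, 433 in WT and 3186 in Stat4fl/flCD11cCre. With cells passing another gate left out of both numbers, members were 61.9% (1688 of 2725) and 12.9% (612 of 4738), a ratio of 0.209 (0.190 to 0.229). The Stat4fl/flCD11cCre share then stood nearer to the 7.42% of the T cell-gated cells than to the WT share. These T cell-gated cells are not a like reference, since 17.2% of them also passed the macrophage gate. The part of free RNA in the member share was not tested. Thinning every cell to 2500 UMIs before the gate gave 69.9% and 21.4%, a ratio of 0.306.

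The share of members grew with depth in both libraries, and the gap was there at each depth. Between 3000 and 6000 UMIs, the range with the most cells in each library, members were 69.3% of 1509 WT cells without Itgax and 9.68% of 2676 Stat4fl/flCD11cCre cells. From 10000 to 20000 UMIs they were 95.9% and 55.6%, and among microglia-only cells of that depth 95.8% and 32.9%. Itgax-positive microglia, left out by the rule, numbered 788 in WT and 568 in Stat4fl/flCD11cCre, of which 96.2% and 71.5% had 3 or more H2 UMIs, at median depths of 13179.5 and 15017 UMIs.

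**Figure D2:**
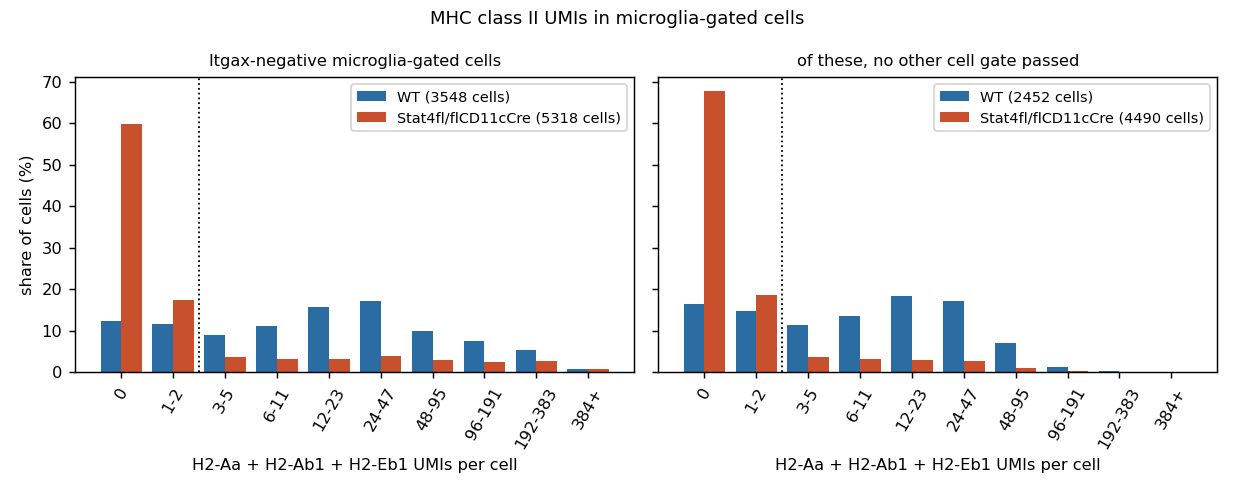
Share of Itgax-negative microglia-gated cells (y axis, percent) by summed UMIs of H2-Aa, H2-Ab1 and H2-Eb1 per cell (x axis, ranges that about double), for all such cells and for those passing no other cell gate; members lie right of the dotted line. Most WT cells have more than 2 UMIs, while 59.9% of all and 67.7% of the microglia-only Stat4fl/flCD11cCre cells sit at 0.

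The 3 class II genes of the rule differed by log2 ratios of -0.10 to -0.17 between the genotypes over all members, and by more in the microglia-only cells. H2-Aa stood at 2215 CPM (2195 to 2234) in WT members and 2073 (2051 to 2095) in Stat4fl/flCD11cCre members, against 1556 (1530 to 1583) and 894 (868 to 921) in microglia-only members, a log2 ratio of -0.80. H2-Ab1 went from 1848 to 1137 CPM and H2-Eb1 from 1343 to 779 in microglia-only members, log2 ratios of -0.70 and -0.79. These 3 genes chose the cells. All 3 were lower in Stat4fl/flCD11cCre with and without the cells of other gates, and the size of the difference moved with those cells.

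Among genes of class II assembly outside the rule, Cd74, the invariant chain, had 6801 CPM in WT members and 5583 in Stat4fl/flCD11cCre members (log2 -0.28), and 5214 and 3005 in microglia-only members (log2 -0.80, -0.82 to -0.77). Ciita, the coactivator, had 65.7 and 48.4 CPM (log2 -0.44), and 51.7 (47.1 to 56.7) and 20.1 (16.3 to 24.4) in microglia-only members, a log2 ratio of -1.37 (-1.70 to -1.05). H2-Oa, a chain of the peptide exchange inhibitor H2-O, had 74.6 and 41.7 CPM (log2 -0.84), and a log2 ratio of -0.74 in microglia-only members. Nfya, a subunit of NF-Y, was not lower, with 40.8 and 49.5 CPM (log2 0.28). Ctss, the cathepsin that trims the invariant chain, had 7318 and 5862 CPM (log2 -0.32). Stat4fl/flCD11cCre microglia-only members were deeper (medians of 6480.5 and, in WT, 4402 UMIs), so 3 H2 UMIs stood for a lower share of their RNA. Of these 612 cells 162 had 3 to 5 H2 UMIs, against 276 of 1688 in WT. The part of the rule's threshold in the Cd74 and Ciita ratios was not tested.

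A gene was called between genotypes if its CPM differed 1.5-fold or more and it had 100 or more UMIs over both libraries. Of 11358 such genes, 267 (2.35%) were higher and 362 (3.19%) lower in Stat4fl/flCD11cCre members. In microglia-only members 110 (1.18%) were higher and 237 (2.53%) lower of 9353. The median log2 ratio of all genes tested was 0.05 and 0.03. With DESeq2 size factors the counts over all members were 216 and 434.

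Of 19 tested genes of the class II list outside the rule, 1 was called lower over all members (3.19% of all genes). In microglia-only members 4 were called lower (2.53% of all genes), and none was called higher in either. The list's median log2 ratio was -0.15 and -0.08.

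Interferon-gamma response genes had the lowest median of the 19 lists that are not markers of other cells. Of 35 tested, 22 were called lower in Stat4fl/flCD11cCre members and 1 higher, against backgrounds of 3.19% and 2.35%, with a median log2 ratio of -0.70. In microglia-only members 9 of 31 were called lower (background 2.53%) and 0 higher, with a median of -0.50. That median was below 0 in each of 22 alternatives, from -0.75 to -0.31.

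Irf1, a transcription factor of the interferon response, had 258 and 164 CPM (log2 -0.66, and -0.57 in microglia-only members). Stat2, which passes on the type I interferon signal, had 117 and 77.6 CPM (log2 -0.60, microglia-only -0.52). Socs1, a feedback inhibitor of this pathway, had 47.1 and 27.6 (log2 -0.77), but its microglia-only ratio of -0.33 had an interval that reached 0.00. The receptor chain Ifngr1 was not lower, at 356 and 424 CPM (log2 0.25). Of the 16 receptor and signalling genes tested, 3 were called lower (3.19% of all genes) and 0 higher, with a median of -0.02. In microglia-only members 1 of 16 was called lower (2.53% of all genes).

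Effectors of the interferon-gamma response were lower as well. Iigp1, an immunity-related GTPase that attacks vacuoles of intracellular pathogens, had 265 CPM (259 to 272) in WT members, and 128 (122 to 133) in the Stat4fl/flCD11cCre members (log2 -1.06), and 324 and 208 in microglia-only members (log2 -0.64). Gbp4, a guanylate-binding protein, had 51.7 and 26.5 CPM (log2 -0.97, microglia-only -0.91). Acod1, which makes itaconate, had 235 (229 to 242) and 106 (101 to 111) CPM (log2 -1.15), and 103 and 53.8 in microglia-only members (log2 -0.93). Nos2, the inducible nitric oxide synthase, had 23.1 and 8.65 CPM over all members (log2 -1.42) but 1.48 and 1.02 in microglia-only members, so nearly all of it lay in cells that passed another gate. Cd274, which encodes the checkpoint ligand PD-L1, had 225 and 135 CPM (log2 -0.74, microglia-only -0.53). The 1 gene called higher, Gbp2b, was rare, at 1.79 and 5.85 CPM.

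Type I interferon and MHC class I genes were called lower in part. Of 37 type I interferon response genes, 8 were called lower (3.19% of all genes) and 0 higher, with a median of -0.42. In microglia-only members 5 of 35 were called lower (2.53% of all genes), with a median of -0.40. Oasl1, which restrains interferon production, had 44.9 and 23.5 CPM (log2 -0.94, microglia-only -1.01). Ifit3, an antiviral RNA-binding protein, had 81.2 and 48.4 CPM (log2 -0.75, microglia-only -0.47). Ifitm3 went the other way over all members, from 1417 to 1539 CPM (log2 0.12), and was lower in microglia-only members (log2 -0.23). The MHC class I and immunoproteasome list had 4 of 23 genes called lower (3.19% of all genes) and 0 higher, with a median of -0.39. In microglia-only members 2 of 23 were called lower (2.53% of all genes), with a median of -0.31. Nlrc5, the coactivator of class I genes, had 140 and 78.2 CPM (log2 -0.84, microglia-only -0.61). H2-Q6 and H2-Q7, which belong to a group of near-identical genes whose reads can be split, had log2 ratios of -0.90 and -0.65. B2m, the light chain of class I molecules, had 4424 and 3313 CPM (log2 -0.42, microglia-only -0.28). When members with 2 or more UMIs of any marker of another cell type were left out, which left 249 WT and 39 Stat4fl/flCD11cCre cells, the class I median was 0.03.

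**Figure D3:**
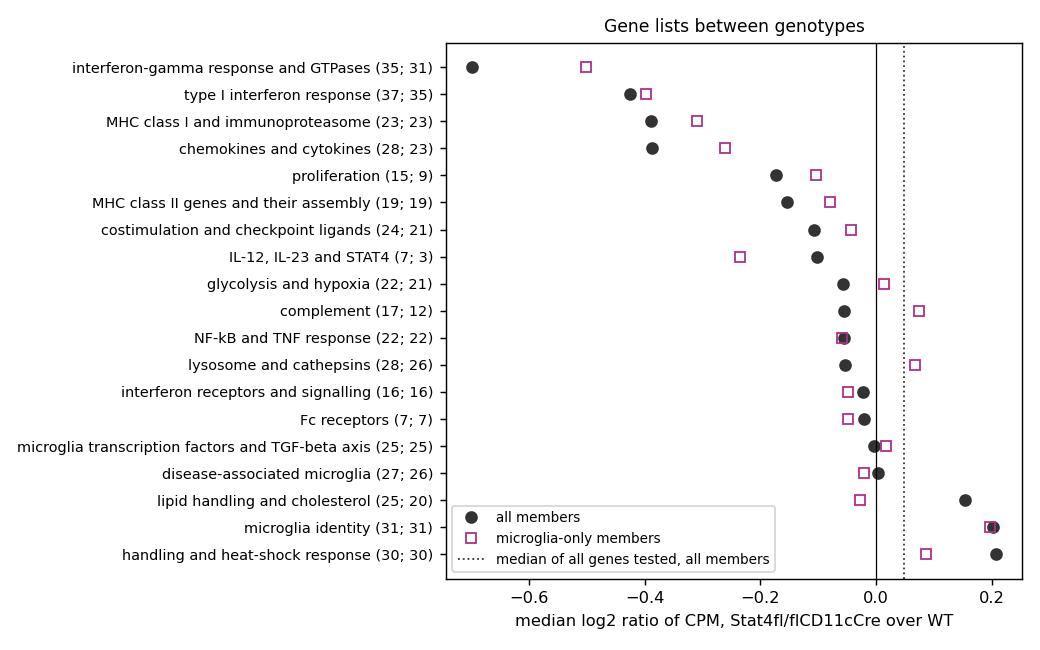
Median log2 ratio of CPM, Stat4fl/flCD11cCre over WT (x axis), of the genes tested in each list (y axis; numbers tested in all members and in microglia-only members in brackets). The interferon-gamma list lies lowest, at -0.70 and -0.50, and the microglia identity list above the median of all genes, at 0.20 in both.

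Of 28 chemokines and cytokines tested, 9 were called lower (3.19% of all genes) and 1 higher (2.35%), with a median of -0.39. In microglia-only members 7 of 23 were called lower (2.53% of all genes) and 0 higher, with a median of -0.26. Cxcl9, a ligand of the T cell receptor CXCR3, had 320 CPM (313 to 328) in WT members, and 162 (155 to 168) in the Stat4fl/flCD11cCre members (log2 -0.99), and 188 and 143 in microglia-only members (log2 -0.40). At a fixed depth of 2500 UMIs, 10.0% of WT and 7.01% of Stat4fl/flCD11cCre microglia-only members had a Cxcl9 UMI (13.9% and 9.80% unthinned), against 2.73% and 0.975% of T cell-gated cells. Cxcl10, another CXCR3 ligand, had 473 and 270 CPM (log2 -0.81, microglia-only -0.53). Tnf, a main inflammatory cytokine, had 175 and 89.4 CPM (log2 -0.97, microglia-only -0.61). Ccl8, the 1 gene called higher, had 12.9 and 29.8 CPM but 0.456 and 0.614 in microglia-only members. Il1b, which encodes interleukin-1β, had 956 and 1091 CPM (log2 0.19), and 207 and 219 in microglia-only members.

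Of 7 genes tested of the IL-12, IL-23 and STAT4 list, 3 were called lower (3.19% of all genes) and 0 higher, with a median of -0.10. In microglia-only members 1 of 3 was called lower (2.53% of all genes) and 0 higher, with a median of -0.23. Il12b and Stat4 were rare. Il12b, the p40 chain shared by IL-12 and IL-23, had 200 UMIs in WT and 27 in Stat4fl/flCD11cCre members, 8.75 and 1.68 CPM, a log2 ratio of -2.38 (-3.02 to -1.80). In microglia-only members it had 100 and 21 UMIs (log2 -1.41, -2.16 to -0.72). These UMIs came from 25 WT and 4 Stat4fl/flCD11cCre cells. Stat4 (ENSMUSG00000062939) had 284 and 227 UMIs over all members, 12.4 and 14.1 CPM, a log2 ratio of 0.19 (-0.07 to 0.44). In microglia-only members it had 54 and 7 UMIs, 6.16 (4.62 to 8.03) and 1.43 (0.576 to 2.95) CPM. Only 26 of 1688 WT and 3 of 612 Stat4fl/flCD11cCre microglia-only members had a Stat4 UMI. At 2500 UMIs these were 0.911% and 0.167% of cells, against 40.7% and 42.1% of T cell-gated cells, and 0.565% and 0.497% of MHC class II-negative microglia. The labels do not say which exons are floxed, and counts from the 3′ end do not test the deletion.

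Of 31 microglia identity genes tested that the rule did not use, 3 were called higher and 0 lower in Stat4fl/flCD11cCre, over all members (2.35% of all genes higher) and in microglia-only members (1.18%). The list's median log2 ratio was 0.20 in both, against 0.05 and 0.03 for all genes. Fcrls, an Fc receptor-like scavenger of microglia, had 341 CPM (333 to 349) in WT members, and 606 (594 to 618) in the Stat4fl/flCD11cCre members (log2 0.83), and 503 and 839 in microglia-only members (log2 0.74). Ecscr, a transmembrane protein gene, had a log2 ratio of 0.79 (microglia-only 0.63), and Upk1b had 13.7 and 24.5 (log2 0.83, microglia-only 0.72). Of the rule's own genes, Gpr34 had 357 and 548 CPM and P2ry12, a purine receptor that guides microglial processes, 706 and 966, while Crybb1 had 278 and 224. With cells thinned to 2500 UMIs before the gate the list's median was 0.05.

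The disease-associated microglia list, genes of phagocytosis and lipid handling that microglia raise around damage, was near level, with a median of 0.00. It had 1 of 27 called in each direction (2.35% of all genes higher, 3.19% lower). In microglia-only members 1 of 26 was called in each direction (1.18% and 2.53% of all genes), with a median of -0.02. Apoe, the lipid carrier that leads that list, had 8910 and 8947 CPM (log2 0.01), and 6078 and 5371 in microglia-only members (log2 -0.18). Cst7, a cathepsin inhibitor, had 73.7 and 38.2 CPM (log2 -0.95, microglia-only -0.39). Trem2, the receptor that senses lipids and debris, had 1036 and 1242 CPM (log2 0.26, microglia-only 0.30). Fabp5, a fatty acid carrier, was 209 and 332 CPM over all members but 39.9 and 30.7 in microglia-only members. Costimulatory ligands were called higher in 1 and lower in 3 of 24 (2.35% and 3.19% of all genes). In microglia-only members 0 were called higher and 2 lower of 21 (1.18% and 2.53% of all genes). Cd86 had 344 and 397 CPM (log2 0.21, microglia-only 0.17). Cd80 had 27.6 and 36.8 (log2 0.42), but 20.5 and 20.7 in microglia-only members (log2 0.01, -0.36 to 0.37). Cd40, the receptor for T cell help, had 31.3 and 21.8 (log2 -0.52), and 14.7 and 7.78 in microglia-only members (log2 -0.92).

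Several of the top genes over all members were low in microglia-only members. Mrc1, the mannose receptor of border macrophages, had 15.7 and 50.7 CPM (log2 1.69) but 6.27 and 6.34 in microglia-only members, whose choice used that gene. Thbs1 had 90.6 and 184 CPM over all members (log2 1.02) and 16.5 and 13.9 in microglia-only members, and Nr4a2, an immediate early gene, had 20.8 and 50.7 (log2 1.28) and 8.89 and 7.16. Ms4a7 had 41.3 and 68.7 CPM, and 4.79 and 3.27. Arg1 and Ccr2 had 262 and 399, and 155 and 203, CPM over all members, and 2.39 and 2.66, and 8.32 and 8.80, in microglia-only members. Ms4a7, Arg1 and Ccr2 are gate genes too, so their low level there is in part built in.

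The immediate early gene Fos was 698 and 1135 CPM (log2 0.70, microglia-only 0.56), while the heat-shock gene Hspa1b was 597 and 335 (log2 -0.83, microglia-only -0.42). Of 30 genes of the handling and heat-shock list, 4 were called higher and 2 lower (2.35% and 3.19% of all genes). In microglia-only members 2 of 30 were called higher and 0 lower (1.18% and 2.53% of all genes). Such genes answer to handling of tissue, and the part of handling in these differences was not tested. Ribosomal protein genes took 13.4% and 12.4% of members' UMIs.

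The summed level of other cells' markers was set beside these results. The 12 infiltrating macrophage and monocyte markers summed to 3202 CPM in WT and 3478 in Stat4fl/flCD11cCre members and to 247 and 221 in microglia-only members, none at 0. The 12 neutrophil markers summed to 7053 and 7807, and to 1056 and 789, with Ly6g and Cd177 at 0 in Stat4fl/flCD11cCre microglia-only members. Border macrophage markers summed to 255 and 366, and to 28.7 and 30.3, with Lyve1, Cd163 and Cd209f at 0 in microglia-only members of both libraries. The macrophage and monocyte list holds every gene of the macrophage gate. Microglia-only members had to fail the macrophage, neutrophil and border macrophage gates. The low sums there are thus in part built in and are no check of the label. T cell markers summed to 79.0 and 65.7 CPM, and B cell markers to 235 and 230. In both cases most came from a gene that is also at a like level in MHC class II-negative microglia, Il7r and Ighm. Their part in the genotype differences over all members was not tested.

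Genotype differences were then read among cells of like class II level. In microglia-only cells with 3 to 5, 6 to 15 and 16 or more H2 UMIs, the interferon-gamma list had medians of -0.48, -0.55 and -0.39. In microglia-only MHC class II-negative cells the median was -1.35. These groups held 276, 501 and 911 WT cells and 162, 183 and 267 Stat4fl/flCD11cCre cells, beside 404 and 3040 negative cells. Whether the negative cells and the members differ in this was not tested. The Stat4fl/flCD11cCre cells of each group were deeper, with median UMIs of 5591, 6313 and 7162 against 3713.5, 3931 and 5050, so equal H2 UMIs stood for a lower share of the cell's RNA.

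H2-K1, a class I heavy chain, went from 1320 CPM in negative cells to 2080, 2264 and 2704 CPM along the 3 groups of members in WT and from 535 to 1484, 1840 and 2285 in Stat4fl/flCD11cCre. In both libraries the largest step lay between cells with 0 H2 UMIs and the members of 3 to 5. Cxcl9 differed in shape, at 44.0, 26.8, 106 and 256 CPM in WT and 14.0, 12.4, 66.5 and 248 in Stat4fl/flCD11cCre, so that at 16 or more UMIs the libraries differed by a log2 ratio of -0.04. Cx3cr1, the fractalkine receptor of resting microglia, went the other way along these groups, from 3187 to 2321 CPM in WT and from 3913 to 2680 in Stat4fl/flCD11cCre. Apoe went from 1613 to 7428 and from 916 to 6983 CPM.

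**Figure D4:**
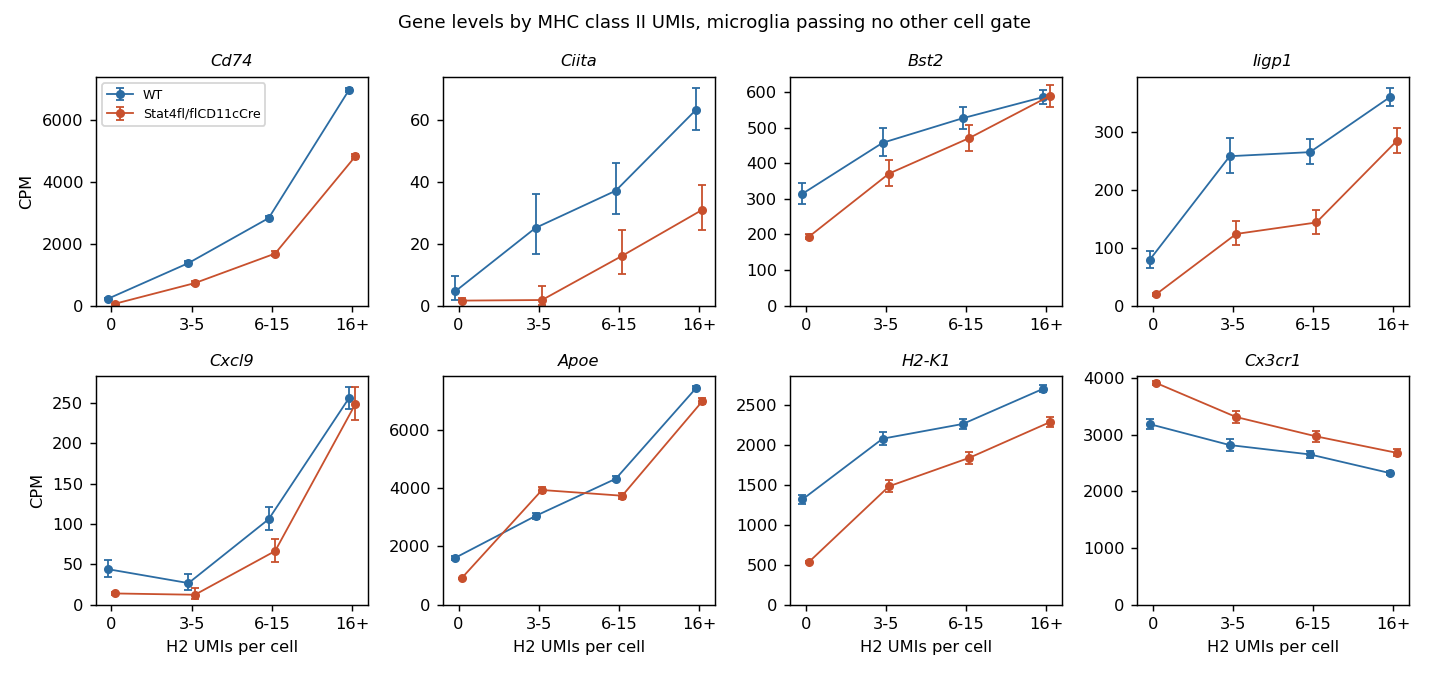
CPM of 8 genes (y axes, each from 0) in microglia-gated cells that pass no other cell gate, grouped by H2 UMIs per cell (x axis), with exact Poisson intervals. Cd74 and Ciita are lower in Stat4fl/flCD11cCre in every group, with overlapping Ciita intervals at 0 H2 UMIs, while at 16 or more H2 UMIs Cxcl9 and Apoe differ by log2 ratios of only -0.04 and -0.09.

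What the members share beyond the rule was described against MHC class II-negative microglia of the same library. The rule split these cells, so this carries no test. Members were deeper, with median UMIs of 5914.5 against 3629 in WT and 10644 against 4775 in Stat4fl/flCD11cCre. In microglia-only cells these were 4402 against 3535.5 and 6480.5 against 4684. The 12 neutrophil markers summed to 1851 CPM in WT and 6753 in Stat4fl/flCD11cCre negative cells, and to 876 and 656 in the microglia-only ones. The microglia-only cells had to fail the neutrophil gate, so their lower sums are in part built in. Of 10466 genes, 936 (8.94%) were 1.5-fold or more higher in members of both libraries and 969 (9.26%) lower. The median log2 ratio of all genes was -0.18 in WT and -0.21 in Stat4fl/flCD11cCre, and with edgeR's TMM factors, which remove most of that shift, the counts were 1366 and 308. In microglia-only cells 291 (3.38%) were higher and 135 (1.57%) lower of 8617, with medians of -0.10 and -0.11, and 373 and 74 relative to these medians.

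Most interferon response genes were higher in the microglia-only members of both libraries. In WT 20 of 30 genes of the interferon-gamma list were called higher (5.55% of all genes), with a median log2 ratio of 0.88. In Stat4fl/flCD11cCre 25 of 29 were (5.51% of all genes), with a median of 1.93, and none was called lower in either. For type I interferon genes these were 27 of 34 (1.08) and 30 of 33 (1.74). Cd74 went from 223 to 5214 CPM in WT and from 54.5 to 3005 in Stat4fl/flCD11cCre. Ciita went from 4.60 to 51.7 and from 1.58 to 20.1 CPM. Cfb, complement factor B, went from 5.25 to 44.6 and from 2.15 to 30.5, and Ccl5, a chemokine for T cells, from 38.1 to 332 and from 54.0 to 139. Il12b had 0 UMIs in negative WT microglia. At 2500 UMIs this was 0 of 354 cells, with an exact upper bound of 1.04% on the share of cells with an Il12b UMI. The share in WT microglia-only members, 14 of 1536 cells (0.911%), lay below that bound, so these cell counts cannot show a difference.

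In microglia-only cells 6 of 31 microglia identity genes were called lower in WT members (5.28% of all genes) and 8 of 31 in Stat4fl/flCD11cCre members (7.06%), and none was higher. Their medians were -0.38 and -0.44, against -0.10 and -0.11 for all genes. Fcrls went from 1373 to 503 CPM in WT and from 1576 to 839 in Stat4fl/flCD11cCre. Ltc4s, the leukotriene C4 synthase, went from 588 to 307 and from 639 to 396. Hpgd, which breaks down prostaglandins, went from 443 to 269 (WT) and from 637 to 370, and Slc40a1, the iron exporter ferroportin, from 117 to 58.2 and from 140 to 75.9. Some genes that led over all members did not in microglia-only members: Arg1 had log2 ratios of 5.51 and 5.33 over all members and went from 2.63 to 2.39 and from 1.20 to 2.66 CPM in microglia-only cells, and Ly6d, a B and plasmacytoid dendritic cell gene, from 1.97 to 2.17 and from 0.885 to 0.409. Both genes were among those that chose the microglia-only cells.

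Antibody tags read the cell surface in the same droplets. CD317 is the protein of Bst2, tetherin, an interferon-induced restriction factor. Its median was 30 tag UMIs in WT and 40 in Stat4fl/flCD11cCre microglia-only members, 17 and 25 in microglia-only negative cells, and 13 and 21 in T cell-gated cells, taken as the low reference of each library. In members of 3 to 5, 6 to 15 and 16 or more H2 UMIs it was 23, 26 and 34 in WT, and 34.5, 39 and 43 in Stat4fl/flCD11cCre. Bst2 RNA showed the same order, with 314, 458, 527 and 586 CPM in WT and 193, 371, 471 and 589 in Stat4fl/flCD11cCre from 0 H2 UMIs upward. The quartiles of neighbouring groups overlapped. These tag medians are raw counts. As a share of all tag UMIs CD317 did not rise at each step: along the 3 groups of members it was 5.46%, 5.28% and 6.51% in WT. In Stat4fl/flCD11cCre it was 4.74%, 7.78% and 5.50%. The T cell-gated reference differed between the libraries, as it did for MERTK (12 and 33 tag UMIs in T cell-gated cells), so tag levels were not compared between genotypes. CD11b, the integrin of myeloid cells, had medians of 319 and 406 in microglia-only members, 275.5 and 358 in negative cells, and 32 and 23 in T cell-gated cells. MERTK, a phagocytic receptor, had 30 and 60 in microglia-only members and 31 and 61 in negative cells.

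**Figure D5:**
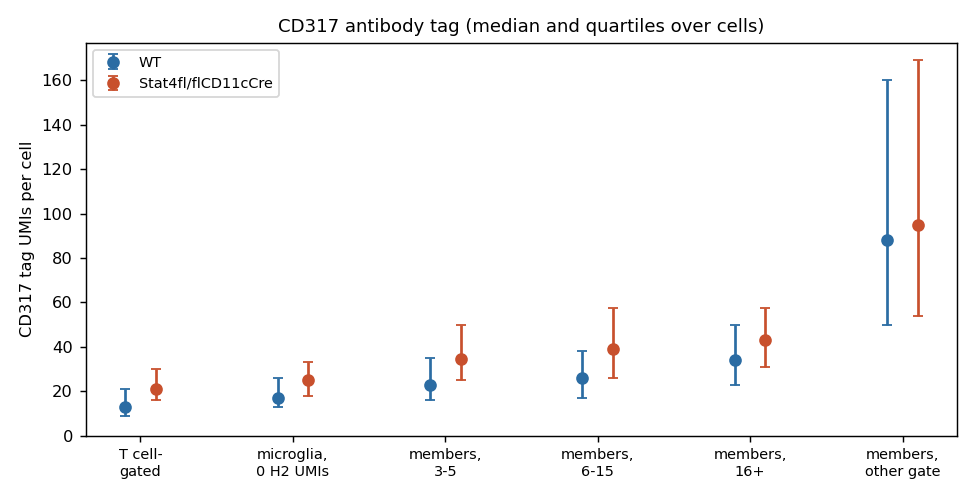
CD317 tag UMIs per cell (y axis) as median with quartiles over cells, for T cell-gated cells, microglia-only cells by H2 UMIs, and members passing another gate, in both libraries. The medians step up with H2 UMIs within each library, to 34 and 43, and are highest, 88 and 95, in the deeper members that pass another gate. These are raw counts: in members passing another gate CD317 was 5.31% and 4.35% of all tag UMIs, against 6.01% and 6.20% in microglia-only members.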

How the data were processed

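Each deposited matrix holds unnormalized UMI counts, with genes and antibody tags against cell barcodes, and its header names Cell Ranger 7.0.0. The mm10 genome and, with no role, bcl2fastq, STAR, Seurat and R 4.3.0 are named per the submitters' processing notes. For intronic reads and doublet removal the treatment is not given in the sources used here. WT and Stat4fl/flCD11cCre held 13820 and 12534 barcodes with 122975017 and 120221740 gene UMIs. Samples were grouped by their labelled genotype.

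A barcode was kept if it held at least 500 genes, at least 1000 gene UMIs and under 10% mitochondrial UMIs. UMIs were summed over cells of a library and scaled to CPM with exact Poisson intervals; ratios have exact conditional binomial and shares exact Clopper-Pearson intervals. With 1 sample per genotype no test was run. Scrublet (scanpy 1.11.5) scored doublets, and no cell was removed by it in the main values. TMM factors came from edgeR 4.0.16 and size factors from DESeq2 1.42.0. Microglia-only members were defined after the data were seen, with gates of 3 or more genes, or 2 or more for B cells, plasmacytoid dendritic cells, border macrophages and choroid plexus.

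The members, gene lists and rules were chosen with earlier results of these data known. Named genes are up to 6 per list and the 12 highest and lowest per comparison, ranked by the interval bound nearest to 1, plus a fixed set around class II, cytokines and markers of other cells. Gene levels by H2 UMIs, Cx3cr1, H2-K1, Bst2, Ccl5, Cfb and markers of other cells quoted for the label check were picked after their values were seen, and not all genes of the rule are printed. Counts were simulated for the genotype comparison of all members (11358 genes) with Poisson counting error alone. They held no variation between cells, mice or libraries. The interval excluded 1 in the right direction for 94.0% of 1.5-fold changes and 100% of 2-fold and 4-fold changes. These values speak to the number of UMIs only and do not stand in for replicates.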

Additional observations from a re-analysis of the deposited data

Results flagged for a closer look

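Gzma, a granzyme of cytotoxic lymphocytes listed among NK cell markers, went opposite ways in the libraries between MHC class II-negative microglia and members. It went from 6.33 to 21.2 CPM in WT (log2 1.74) and from 22.4 to 3.98 in Stat4fl/flCD11cCre (log2 -2.49). In microglia-only cells the log2 ratios were 1.03 and -1.19. The difference between the libraries was not tested.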

How the results depend on the processing

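No paired analysis was possible because each genotype has 1 library. The ratio of member shares stayed below 1 in all 13 alternatives: it was 0.278 without the 10% of barcodes with the highest doublet scores, 0.155 without cells holding 2 or more UMIs of other cells' markers, and 0.306 with cells thinned before the gate. With alternatives added after seeing the data it was 0.209 in microglia-only cells, 0.183 in cells with 0 of 7 macrophage genes and 0.175 in cells under 8000 UMIs.

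Counts of genes higher and lower in Stat4fl/flCD11cCre moved with the cells and UMIs that entered: 56 and 125 without cells of other markers, 110 and 237 in microglia-only members, 104 and 186 with 0 of 7 macrophage genes, 118 and 188 thinned after the gate, 143 and 218 thinned before it, 709 and 1128 with 20 or more UMIs, 2615 and 4361 with no filter on low counts, 58 and 80 at 2-fold, and 117 and 125 or 137 and 165 in members of 3 to 5 or 6 to 15 H2 UMIs. Under 8000 UMIs 103 were higher.

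Genes higher and lower in members than in negative microglia of both libraries were 43 and 46 without cells of other markers, 291 and 135 in microglia-only cells, 219 and 88 with 0 of 7 macrophage genes, 282 and 236 under 8000 UMIs, 498 and 427 thinned, 2921 and 2303 with no filter, and 521 and 131 at 2-fold. The lower genes were 308 with TMM factors, 366 with DESeq2 size factors and 1461 with 20 or more UMIs. The settings change the cells, UMIs, genes or scaling that enter, and the cause of the moved counts was not tested.

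A gene called between genotypes over all members had a log2 ratio of the other sign in these alternatives. In members of 3 to 5 H2 UMIs Cxcl9 (0.17), Fabp5 (-0.61) and H2-Oa (0.015) did so. In members of 6 to 15 H2 UMIs Cfp (-0.19) and Osm (-0.21) did so. In members under 8000 UMIs C2 (0.25), Cd276 (-0.13), Cfp (-0.41), Fos (-0.0047), Mrc1 (-0.22) and Nr4a2 (-0.33) did so. In members with 0 of 7 macrophage genes C2 (0.29), Ccl8 (-4.39), Cd276 (-0.018), Fabp5 (-0.18), Mrc1 (-1.10) and Thbs1 (-0.85) did so. Without cells of other markers Ecscr (-0.072), Fos (-0.89), H2-Oa (0.12), H2-Q7 (0.025) and Il18bp (0.58) did so. In microglia-only members Fabp3 (0.048), Fabp5 (-0.38), Ms4a7 (-0.55), Nr4a2 (-0.31), Thbs1 (-0.25) and Vegfa (-0.12) did so.

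Depth limits rare genes: with 7 Stat4 and 21 Il12b UMIs in Stat4fl/flCD11cCre microglia-only members, their ratios rest on few cells. Stricter H2 thresholds of 5 and 10 UMIs left the member share ratio at 0.312 and 0.310.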
